A study of Mus musculus with 24 samples.

Results

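SR proteins are the splicing factors that carry a domain rich in arginine and serine. The mRNAs of 9 of them, Srsf1, Srsf2, Srsf3, Srsf4, Srsf5, Srsf6, Srsf7, Srsf9 and Srsf10, were followed over 24 dual-colour arrays of mouse T helper cells. Members were taken by gene symbol, and their 18 probes stand among 55681 probes and 20022 gene symbols. Several probes were present for 6 of the genes, and Srsf4, Srsf5 and Srsf9 carried 1 probe each.

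SR proteins bind exonic enhancer sequences through RNA recognition motifs and bring the U1 snRNP and the U2 auxiliary factor to neighbouring splice sites. Their arginine-serine domains are phosphorylated by the SRPK and CLK kinases, which govern their import and their release from nuclear speckles. Most members also splice a poison exon into their own transcripts, which sends those transcripts to nonsense-mediated decay. Activated T cells are known to change the splicing of surface receptors such as CD45, a process in which SR proteins and hnRNPs take part.

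Naive CD4+ cells of female C57BL/6 mice had been differentiated in vitro to Th1 cells (14 arrays) or Th2 cells (10 arrays). The cells received DMSO as vehicle (6 arrays), JQ1, which displaces BET proteins from acetylated chromatin, at 50 or 500 nM (10 arrays), or flavopiridol, which blocks the kinase of P-TEFb and with it transcript elongation, at 1 or 10 µM (8 arrays). A pair of arrays, one for unstimulated and one for reactivated cells, was made after 6 hr of each treatment, and further pairs after 24 hr of DMSO and of 500 nM JQ1 for Th1 cells. The labels of the Th2 DMSO pair contradict each other on its time (6 or 24 hr), so its time is unknown wherever it served as the control. Each array set the sample in Cy3 against naive CD4+CD62L+CD25-CD44lo T cells in Cy5, always with the same dyes. No condition had a replicate, so the 4 contexts of a drug (Th1 or Th2, unstimulated or reactivated) stood in for replicates. A p-value thus sets an effect against the spread between these arrays. For a drug against DMSO both doses were fitted together on 12 arrays, so the other dose adds to that spread. The 24 arrays lay on 3 slides. Reactivated and unstimulated arrays of a treatment always shared a slide, no 6 hr flavopiridol array shared one with its control, and the Th1 JQ1 arrays did.

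In Cy3, 35.4% to 41.5% of probes were well above background on the flavopiridol arrays and 43.8% to 52.0% on all others. In Cy5 the range was 48.1% to 53.8%. The brightest probe of every member was above background on all 24 arrays and never saturated, and its Cy5 signal had an SD of 0.07 to 0.10 (log2) over the arrays. The T cell genes Cd3e, Cd3g and Cd4 were above background on all arrays. Of the Th1 genes, Tbx21 was 5.41 above naive cells (log2) in the unstimulated Th1 DMSO cells and -0.02 in the Th2 cells, yet 4.64 in reactivated Th2 DMSO cells, where Ifng stood at 6.20 and Cxcr3 at 4.11. In the same cells Il12rb2 was at -0.20 and Stat4 at -2.56, against 0.98 and -0.60 in reactivated Th1 DMSO cells, and the Th2 gene Gata3 was at 2.64, against -0.33. Il4 was 8.02 in those cells and 3.07 in reactivated Th1 DMSO cells. Of the B cell genes, Ms4a1 was above background on 20 arrays and Cd79a on 14. Ms4a1 was at 1.61 to 4.03 against naive cells on the DMSO arrays of 6 hr Th1 and of Th2 cells. The CD8 genes Cd8a and Cd8b1 passed on 13 and 21 arrays. Of the myeloid genes, Lyz2 passed on 0 and Cd14 on 3 arrays while Itgam passed on 24, and of the NK cell genes Klrb1c passed on 0 and Ncr1 on 1. The part of such cells in the results below was not tested. In bulk RNA of this kind, fewer cells of a type and less RNA per cell cannot be told apart.

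Against naive cells, the brightest probes of Srsf3 and Srsf9 were higher on all 6 DMSO arrays. Srsf3, which encodes the smallest family member and serves also as an mRNA export adaptor, ranged from 0.77 to 1.97 (log2 ratio), and Srsf9, a close relative of Srsf1, ranged from 0.67 to 1.29. The other 7 genes straddled the naive level over these arrays. The highest DMSO values among them were those of Srsf7 (-0.20 to 1.62), and Srsf4 had the narrowest range (-0.38 to 0.06). These levels have no test, and without a dye swap a dye effect of a probe cannot be told apart from its level. With 500 nM or 50 nM JQ1 all members kept within -1.11 to 2.00, whereas with flavopiridol Srsf7 fell as low as -3.16.

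**Figure D1:**
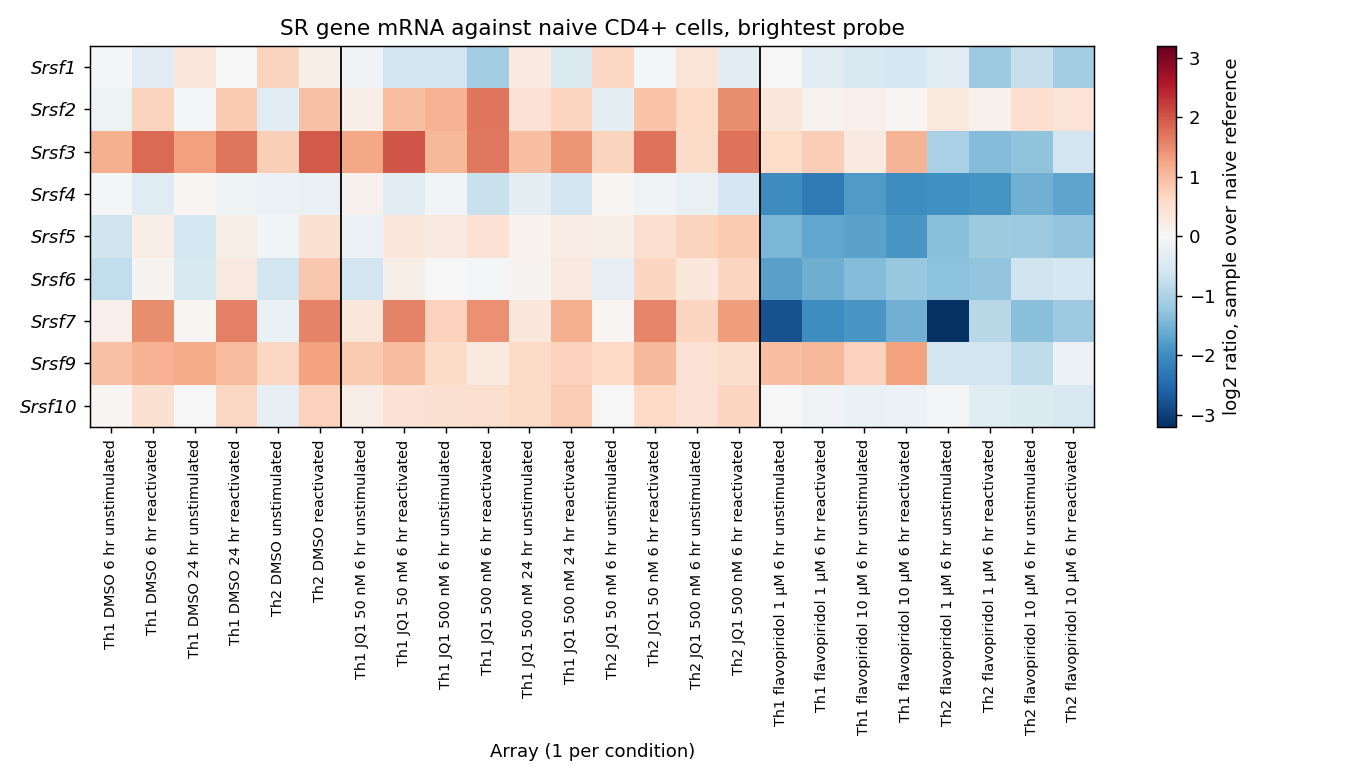
The log2 ratio of sample over naive reference is shown by colour for the brightest probe of each SR gene (rows) on each of the 24 arrays (columns), with lines between the DMSO, JQ1 and flavopiridol arrays. Srsf4, Srsf5, Srsf6 and Srsf7 are below the naive level on all 8 flavopiridol arrays, and Srsf3 and Srsf9 are below it there in the Th2 cells only.

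Reactivation without drug was compared first, over the 3 DMSO pairs. Of the 9 members 6 rose and Srsf1 fell, while Srsf4 (-0.19 ± 0.13, SE, log2) and Srsf9 (0.20 ± 0.18) were not called. Calls are limma's at a Benjamini-Hochberg adjusted p below 0.05 over 12528 genes, of which 50.9% were called (21.9% higher and 29% lower). The median change was 0.72 over the members and -0.05 over all genes tested.

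Srsf7, which encodes an SR protein with a zinc knuckle and, like Srsf3, an export adaptor, changed most. Its log2 ratio was 0.16 in unstimulated and 1.49 in reactivated Th1 cells at 6 hr, 0.04 and 1.62 in Th1 cells at 24 hr, and -0.20 and 1.59 in Th2 cells. The 3 reactivated arrays lay far above the 3 unstimulated ones, and the fitted rise was 1.57 ± 0.14 (2.96-fold, adjusted p = 0.00044). Srsf2 encodes the protein also named SC35. It went from -0.15 to 0.70 in Th1 cells at 6 hr, from -0.06 to 0.83 at 24 hr and from -0.35 to 0.95 in Th2 cells. The groups again did not overlap, with a rise of 1.01 ± 0.14 (2.02-fold, adjusted p = 0.0019).

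Srsf6, one of the related group Srsf4, Srsf5 and Srsf6, went from -0.78 to 0.10 in Th1 cells at 6 hr, from -0.48 to 0.29 at 24 hr and from -0.58 to 0.86 in Th2 cells. Reactivation thus moved it from below to above the naive level in every pair, by 1.02 ± 0.17 (2.03-fold, adjusted p = 0.0032). Srsf5 rose by 0.72 ± 0.13 (adjusted p = 0.0044), so that within this related group Srsf4 alone was not called. Srsf3 rose by 0.76 ± 0.18 (adjusted p = 0.013), by 1.20 in the Th2 pair and by 0.41 to 0.68 in the Th1 pairs, a call that was lost when the mean over its probes was taken (0.33 ± 0.14, adjusted p = 0.093). Srsf10, which encodes a factor that represses splicing once dephosphorylated, rose by 0.70 ± 0.15 (adjusted p = 0.0095). Srsf1, the founding member SF2/ASF, fell by 0.40 ± 0.12 on the log2 scale (adjusted p = 0.035). Its reactivated values were lower within every pair, but that call was lost under 8 of 12 alternative settings.

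**Figure D2:**
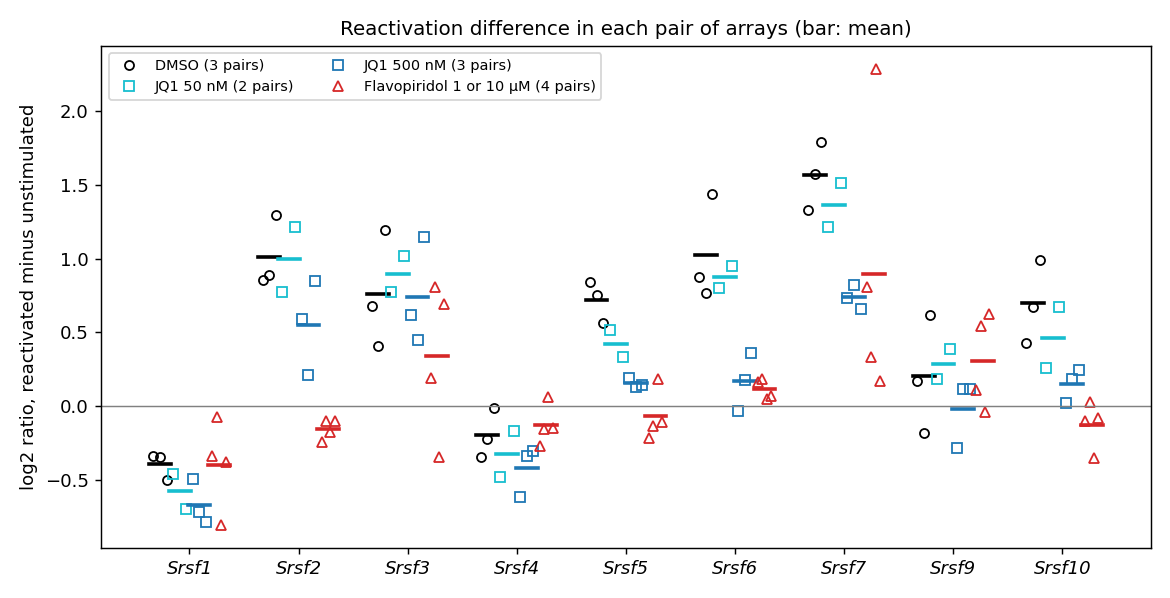
Each point is 1 pair of arrays, as the log2 ratio of reactivated minus that of unstimulated cells for the brightest probe, with bars at the means of the DMSO, JQ1 and flavopiridol pairs. The 3 DMSO pairs of Srsf2, Srsf5, Srsf6, Srsf7 and Srsf10 are all above 0, and those of Srsf2, Srsf5, Srsf6 and Srsf10 lie above all flavopiridol pairs of the same gene.

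To show what precedes the start sites of the 3 genes that rose most, the 250 bases before each start are given 5′ to 3′ on the gene's strand, from RefSeq on build GRCm38.p6. All 9 members matched that table. Capitals mark matches, on either strand, to 6 motifs that were searched: the CCAAT box (CCAAT), TATA box (TATAAA), E-box (CACGTG), ETS core (CCGGAAG), GC box (GGGCGG) and cAMP response element (TGACGTCA).
Srsf7, chr17:80207306-80207555, minus strand: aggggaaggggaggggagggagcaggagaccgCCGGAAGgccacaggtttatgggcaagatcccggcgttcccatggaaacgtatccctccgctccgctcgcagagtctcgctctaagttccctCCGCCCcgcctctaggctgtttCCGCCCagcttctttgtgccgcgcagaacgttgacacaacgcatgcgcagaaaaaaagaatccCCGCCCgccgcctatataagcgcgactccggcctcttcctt
Srsf6, chr2:162931258-162931507, plus strand: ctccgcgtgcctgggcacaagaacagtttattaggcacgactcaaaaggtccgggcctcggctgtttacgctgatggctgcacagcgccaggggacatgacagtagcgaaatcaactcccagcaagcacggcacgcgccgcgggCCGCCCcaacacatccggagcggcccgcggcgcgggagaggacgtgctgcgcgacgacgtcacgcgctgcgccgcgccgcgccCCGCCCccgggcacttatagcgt
Srsf2, chr11:116853095-116853344, minus strand: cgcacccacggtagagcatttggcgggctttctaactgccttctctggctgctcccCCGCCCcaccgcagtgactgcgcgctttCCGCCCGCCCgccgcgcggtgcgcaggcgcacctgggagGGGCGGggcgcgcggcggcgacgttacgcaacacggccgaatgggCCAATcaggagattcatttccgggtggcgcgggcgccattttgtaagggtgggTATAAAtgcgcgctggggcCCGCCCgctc

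The GC box was the motif that most members held, with a match upstream of 8 of the 9 genes (all but Srsf3), against 32.7% of 32851 RefSeq windows of the same length. G and C made up 56.8% (Srsf5) to 78% (Srsf4) of the bases in the member windows, more than in 63.6% and 97.9% of all windows. Srsf7 held GC boxes 126, 104 and 41 bases before its start and an ETS core 218 bases before it. The ETS core also stood upstream of Srsf4 and Srsf5, and in 6.91% of all windows. Srsf2 held 5 GC boxes, of which those starting 166 and 162 bases before the start overlap, a CCAAT box 82 bases before the start and a TATA box 29 bases before it. Srsf3 shared a CCAAT box and a TATA box with Srsf2, and the CCAAT box was found before Srsf10 as well (33.8% and 12.4% of all windows). No member window held the E-box (6.02%) or the cAMP response element (1.55%). A match is a description of letters only.

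Flavopiridol at 10 µM lowered 7 of the 9 members and raised none over the 4 contexts at 6 hr. Of all 12427 genes tested, 48.9% were called and 33.5% were lower. The median change was -0.86 over the members and -0.22 over all genes. This distance depends on the scaling of the arrays, since the median over all genes dropped to -1.06 with median centring in place of loess, and the members' median to -2.13. With a shift to the spike-in RNA the members' median was -1.64. Relative to all genes it was -0.63 with loess, -1.07 with median centring, -0.63 with the spike-in shift and -0.29 with the scanner software's ratio.

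Srsf7 fell most. Its log2 ratios with DMSO and with 10 µM flavopiridol were 0.16 and -1.87 in unstimulated Th1 cells, 1.49 and -1.54 in reactivated Th1 cells, -0.20 and -1.34 in unstimulated Th2 cells, and 1.59 and -1.17 in reactivated Th2 cells. All 4 flavopiridol values were below the lowest DMSO value, and the fitted change was -2.24 ± 0.33 (4.72-fold lower, adjusted p = 0.00066). At 1 µM the 4 contexts, in the same order, were at -2.78, -1.98, -3.16 and -0.88, a change of -2.96 ± 0.33 (adjusted p = 0.00012). The value of -3.16, in unstimulated Th2 cells, was the lowest of any member on any array.

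Srsf4 gave the most even response. With 10 µM flavopiridol its log2 ratios were -1.82, -1.98, -1.54 and -1.69 in the 4 contexts, in the order above, against -0.03, -0.38, -0.20 and -0.21 with DMSO. It fell by 1.55 ± 0.12 on the log2 scale (2.93-fold, adjusted p = 3.2e-05), and by 1.82 ± 0.12 at 1 µM (adjusted p = 1.1e-05). Srsf4 was not called on reactivation, and its differences were of like size in unstimulated (-1.79 and -1.34) and in reactivated cells (-1.60 and -1.47). Its relative Srsf5 fell by 1.49 ± 0.19 at 10 µM (adjusted p = 0.00038) and by 1.40 ± 0.19 at 1 µM (adjusted p = 0.00042). On the 8 flavopiridol arrays Srsf5 lay between -1.85 and -1.15, below all 16 other arrays (-0.63 to 0.85).

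Srsf3 fell by 1.55 ± 0.40 at 10 µM (adjusted p = 0.012), with differences of -0.85 and -0.72 in the Th1 and of -2.06 and -2.57 in the Th2 contexts. Srsf6, Srsf1 and Srsf10 fell less, by 0.86 ± 0.24 (adjusted p = 0.018), 0.85 ± 0.25 (adjusted p = 0.022) and 0.60 ± 0.21 (adjusted p = 0.043). Srsf9 changed by -0.74 ± 0.33 and was not called (adjusted p = 0.096). Srsf2 changed by 0.01 ± 0.27. That value is the mean of opposite differences, of 0.32 and 0.89 in unstimulated and of -0.64 and -0.51 in reactivated cells, and it turned to -1.25 with median centring (adjusted p = 0.0058).

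The controls of these contrasts lay on other slides than the flavopiridol arrays. With slide as a random block Srsf3, Srsf4, Srsf5 and Srsf7 kept their calls at 10 µM (adjusted p = 0.042, 0.00032, 0.0037 and 0.0059) and Srsf1, Srsf6 and Srsf10 lost theirs. The same 3 genes lost their calls, and the same 4 kept them, when only the 8 arrays of 10 µM and DMSO were fitted. Over all 14 alternative settings Srsf4, Srsf5 and Srsf7 were always called, Srsf3 lost its call once (adjusted p = 0.067 without the unstimulated Th2 context), Srsf1 and Srsf6 each lost theirs in 6 settings and Srsf10 in 10.

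At 1 µM, 5 members were lower (51.7% of all genes were called, 35.4% lower), namely Srsf3, Srsf4, Srsf5, Srsf6 and Srsf7. No member differed between 10 and 1 µM by limma's test, where 1.88% of all genes did (1.5% higher and 0.378% lower). An unadjusted p below 0.05 was found for 1 member and for 1425 of all 12427 genes. The largest difference between the doses was that of Srsf7, at 0.72 ± 0.33 higher with 10 µM than with 1 µM (adjusted p = 0.46), and Srsf6 followed at 0.51 ± 0.24 (adjusted p = 0.51).

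**Figure D3:**
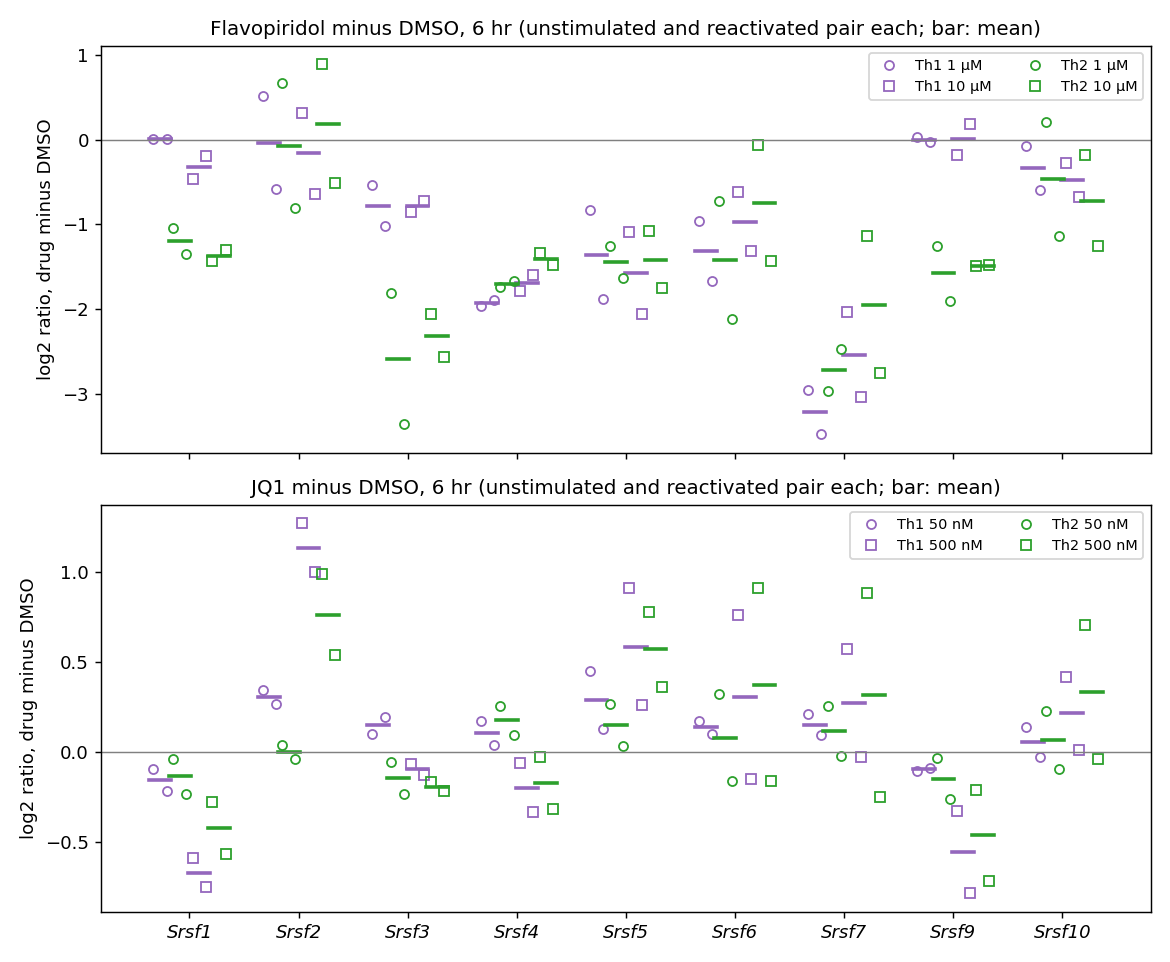
Points give the log2 ratio with drug minus that with DMSO at 6 hr for the brightest probe, by cell type and dose, for flavopiridol (top) and JQ1 (bottom), with bars at the mean of the unstimulated and the reactivated pair. Srsf4, Srsf5 and Srsf7 are below 0 in all 8 flavopiridol pairs, and Srsf1, Srsf3 and Srsf9 are lower in Th2 than in Th1 cells, while with 500 nM JQ1 Srsf2 is above 0 in all 4 pairs and Srsf1 and Srsf9 below 0.

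JQ1 at 500 nM raised Srsf2 and Srsf5 and lowered Srsf1 and Srsf9, with 47.6% of all 12909 genes called (17.7% higher and 29.9% lower). Srsf2 stood at 1.12, 1.71, 0.64 and 1.49 with JQ1, against -0.15, 0.70, -0.35 and 0.95 with DMSO, in unstimulated and reactivated Th1 and then Th2 cells. Each JQ1 value exceeded its own control by at least 0.54, and the change was 0.95 ± 0.11 (1.93-fold, adjusted p = 5.8e-05). Srsf5 changed by 0.91 and 0.78 in unstimulated and by 0.26 and 0.36 in reactivated cells, a mean of 0.58 ± 0.11 (adjusted p = 0.0014). The call of Srsf5 was lost with median centring (0.26, adjusted p = 0.21), where that of Srsf2 was kept (0.59, adjusted p = 0.0040). With a shift to the spike-in RNA, which placed the median of all genes at -0.62 in place of -0.07, Srsf2 (adjusted p = 0.27) and Srsf5 (adjusted p = 0.93) lost their calls.

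Srsf1 and its close relative Srsf9 fell together. Srsf1 went from -0.03 to -0.62 and from -0.36 to -1.11 in unstimulated and reactivated Th1 cells, and from 0.70 to 0.42 and from 0.20 to -0.37 in Th2 cells. It was lower in all 4 contexts, with a change of -0.55 ± 0.08 (1.46-fold lower, adjusted p = 0.00045). Srsf9 differed by -0.33 and -0.79 in Th1 and by -0.21 and -0.72 in Th2 cells, a change of -0.51 ± 0.10 (adjusted p = 0.0024). Both calls held under all 15 alternative settings. The remaining 5 members, with changes of -0.19 to 0.34, were not called.

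The Th1 pairs of DMSO and JQ1 arrays shared a slide, at 6 and at 24 hr. A fit of those pairs alone, which was chosen after seeing the data, gave 0.66 ± 0.20 for Srsf2 (adjusted p = 0.028), 0.47 ± 0.14 for Srsf5 (adjusted p = 0.029), -0.47 ± 0.12 for Srsf1 (adjusted p = 0.014) and -0.49 ± 0.11 for Srsf9 (adjusted p = 0.0099). It also called Srsf4 lower, at -0.30 ± 0.10 (adjusted p = 0.039), and 38.2% of all genes. At 50 nM JQ1 no member was called by limma's test (0.341% of all genes were, 0.256% higher and 0.0852% lower). None had an unadjusted p below 0.05, where 1701 of all 12909 genes did, and the 9 changes were between -0.15 and 0.22. Against 50 nM, 500 nM raised Srsf2 (0.80 ± 0.11, adjusted p = 0.00046) and Srsf5 (0.36 ± 0.11, adjusted p = 0.028) and lowered Srsf1, Srsf9 and Srsf4 (-0.33 ± 0.08 for Srsf4, adjusted p = 0.0092), with 31.3% of all genes called (10.7% higher and 20.6% lower). With the spike-in shift Srsf5 turned to -0.20 (adjusted p = 0.57) and Srsf2 was at 0.24 (adjusted p = 0.50), and the call of Srsf5 was also lost with median centring and without any of 3 contexts (all but reactivated Th1 cells).

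At 24 hr of 500 nM JQ1, Th1 cells had 1 pair of arrays in each state and hence no test. In unstimulated cells Srsf5 was higher by 0.67, Srsf10 by 0.62, Srsf6 by 0.57 and Srsf2 by 0.53, and Srsf9 differed by -0.56. In reactivated cells Srsf7 differed by -0.47, Srsf4 and Srsf1 each by -0.45 and Srsf9 by -0.27, and Srsf2, which at 6 hr was higher by 1.00, differed by -0.15. No member differed 2-fold in either pair, where 4.88% and 4.58% of all genes were 2-fold lower and 2.33% and 3.4% were 2-fold higher. The median of the members was 0.28 in unstimulated and -0.27 in reactivated cells, and the former turned to -0.19 with the spike-in shift.

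Whether a drug acted differently in reactivated cells was asked through the interaction of drug and state. An additive slide effect cancels in it, because both arrays of each pair shared a slide. With 500 nM JQ1, 4 members were called and each was lower in reactivated cells relative to unstimulated ones (10.1% of all genes were called, 4.5% higher and 5.62% lower). The sizes were -0.99 ± 0.15 for Srsf6 (adjusted p = 0.0053), -0.87 ± 0.16 for Srsf7 (adjusted p = 0.011), -0.58 ± 0.15 for Srsf10 (adjusted p = 0.037) and -0.53 ± 0.14 for Srsf5 (adjusted p = 0.045).

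For Srsf6 the pairs show what this means. Reactivation raised it by 0.87 in Th1 cells at 6 hr and by 1.44 in Th2 cells with DMSO, and by 0.80 and 0.95 with 50 nM JQ1, whereas with 500 nM JQ1 the differences were -0.04 and 0.36. The 24 hr Th1 pairs, which did not enter the fit, gave 0.77 with DMSO and 0.18 with 500 nM JQ1. For Srsf7 the same differences were 1.33 and 1.79 with DMSO and 0.73 and 0.65 with 500 nM JQ1 at 6 hr, and 1.57 and 0.82 in Th1 cells at 24 hr. The reactivation difference of both genes was smaller with 500 nM JQ1 in each of the 3 matched comparisons. The calls were sensitive to the contexts, however. Without one of the 4 contexts 0 to 2 members were called (0 without unstimulated Th2 cells, 1 without reactivated Th2 cells and 2 without either Th1 context). In the Th1 pairs alone, with 24 hr included, Srsf6 was at -0.75 ± 0.21 (adjusted p = 0.11) and no member was called, against 2.33% of all genes. The spike-in RNA stood at 0.89 on the reactivated 6 hr Th1 array with 500 nM JQ1, the highest of all arrays, and with the spike-in shift all 9 members were called lower in reactivated cells, as were 85.7% of all genes, whose median moved to -1.22. The part of that array in the result was not tested beyond its omission.

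With 10 µM flavopiridol the interaction was called for Srsf2 (-1.18 ± 0.26, adjusted p = 0.027) and Srsf6 (-1.03 ± 0.27, adjusted p = 0.044), with 15.8% of all genes called, 8.9% higher and 6.94% lower. Srsf2 rose by 0.86, 0.89 and 1.30 on reactivation with DMSO, whereas in the 4 flavopiridol pairs its differences were -0.24, -0.10, -0.18 and -0.10. Those of Srsf6 with flavopiridol were 0.05 to 0.18, all below the lowest with DMSO (0.77). Neither call survived the omission of any 1 of the 4 contexts. With slide as a random block Srsf5, Srsf7 and Srsf10 were called as well, a gain that is not set against all genes here. The reactivation differences of Srsf3 with 10 µM flavopiridol were 0.81 in Th1 and 0.69 in Th2 cells, within its range with DMSO. Srsf7 differed by 2.29 in Th2 cells with 1 µM, where its unstimulated value was the lowest seen, but by 0.17 to 0.80 in the other 3 flavopiridol pairs.

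Between the cell types, no drug effect on a member was called to differ. For flavopiridol, limma called 0.0161% of all genes. An unadjusted p below 0.05 was found for 3 members and for 1608 of all 12427 genes. The 10 µM effects on these 3 members in Th1 cells exceeded those in Th2 cells by 1.53 ± 0.52 for Srsf3 (adjusted p = 0.31), 1.49 ± 0.31 for Srsf9 (adjusted p = 0.20) and 1.04 ± 0.24 for Srsf1 (adjusted p = 0.20). In Th1 cells Srsf9 differed from DMSO by -0.18 and 0.19, and in Th2 cells by -1.49 and -1.48. The flavopiridol arrays of Th1 and of Th2 cells lay on different slides, so slide and cell type cannot be told apart in these differences. For JQ1 0% of all genes and none of the members were called. No member had an unadjusted p below 0.05, where 906 of all 12909 genes did.

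Th1 and Th2 cells were then compared directly over 10 conditions matched by treatment and state. Both cell types shared a slide in the DMSO conditions only, and there the time of the Th2 cells is unknown. Srsf3 (0.84 ± 0.23, adjusted p = 0.014) and Srsf9 (0.64 ± 0.22, adjusted p = 0.044) were higher in Th1 cells, and Srsf6 (-0.50 ± 0.07, adjusted p = 0.00025) and Srsf5 (-0.40 ± 0.06, adjusted p = 0.00048) were lower, with 35.6% of all genes called (17% higher and 18.5% lower in Th1 cells). The first pair of calls rested on the flavopiridol conditions, where slide and cell type cannot be told apart. In the 4 flavopiridol conditions Srsf3 was higher in Th1 cells by 1.57 to 2.17 and Srsf9 by 1.48 to 1.68, while in the 6 other conditions the differences were -0.16 to 0.52 and -0.26 to 0.26. Without the flavopiridol conditions, an alternative chosen after seeing the data, Srsf3 (0.23 ± 0.10, adjusted p = 0.13) and Srsf9 (0.02 ± 0.09, adjusted p = 0.89) were no longer called. Srsf5 (-0.36 ± 0.07, adjusted p = 0.0051) and Srsf6 (-0.48 ± 0.09, adjusted p = 0.0056) stayed lower in Th1 cells, and Srsf1 was called lower too (-0.73 ± 0.08, adjusted p = 0.00043), against 28.6% of all genes called. Srsf1 was lower in Th1 cells in all 6 of these conditions (-1.04 to -0.54) and higher in all 4 flavopiridol conditions (by 0.24 to 0.80). Within 1 slide, the DMSO arrays gave -0.73 and -0.56 for Srsf1, -0.20 and -0.76 for Srsf6 and -0.55 and -0.28 for Srsf5, in unstimulated and reactivated cells. With median centring or the spike-in shift no member was called over the 10 conditions.

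**Figure D4:**
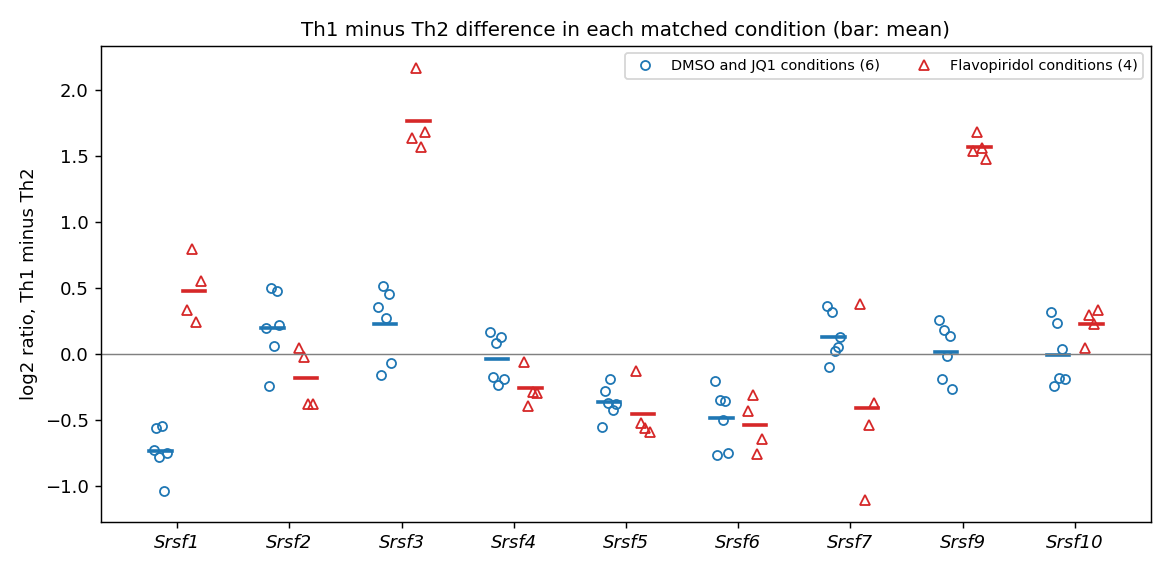
Each point is the log2 ratio in Th1 minus that in Th2 cells in 1 matched condition, for the brightest probe, with bars at the means of the 6 DMSO and JQ1 conditions and of the 4 flavopiridol conditions. Srsf3 and Srsf9 lie at 1.48 or higher in the 4 flavopiridol conditions and at 0.52 or lower in the others, Srsf1 changes side between the sets, and Srsf5 and Srsf6 are below 0 in all 10 conditions.

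Set against each other at 6 hr, flavopiridol at 10 µM left 7 members lower than JQ1 at 500 nM and none higher, where 49.4% of all genes were called, 18.7% higher and 30.7% lower. In every context the arrays of the drugs lay on different slides, so slide and drug cannot be told apart within a context. The difference was -2.53 ± 0.20 for Srsf7 (adjusted p = 0.00059) and -2.07 ± 0.16 for Srsf5 (adjusted p = 0.00057). Srsf3, Srsf4, Srsf6, Srsf2 and Srsf10 followed, at -1.41 to -0.87. The call of Srsf2 was lost in 6 of 13 other settings (adjusted p up to 0.12), among them the spike-in shift and the omission of either Th1 context or of reactivated Th2 cells, and those of Srsf3, Srsf6 and Srsf10 in 1 each. Srsf1 (-0.30 ± 0.31, adjusted p = 0.45) and Srsf9 (-0.23 ± 0.38, adjusted p = 0.64) were not called. The median difference was -1.20 over the members and -0.16 over all genes.

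Genes with several probes did not always give 1 answer. Each probe was therefore fitted on its own, over all probes. Of the 18 probes, 10 were higher and 1 lower on reactivation (40.9% of all probes were called), and 1 was higher and 10 lower with 10 µM flavopiridol (45.4%). With 500 nM JQ1 4 were higher and 4 lower (36.7%), and in the interactions with reactivation 2 were lower for flavopiridol (10.8%) and 5 for JQ1 (6.45%). Those for flavopiridol were 1 of 2 probes in each of Srsf2 and Srsf6. Those for JQ1 were 2 of 2 in Srsf6, 1 of 2 in Srsf7, 1 of 3 in Srsf10 and 1 of 2 in Srsf2. The 1 probe of Srsf5, called for JQ1 in the fit over genes, was not called in this fit. The clearest conflict was in Srsf6. Its dimmer probe was raised by 10 µM flavopiridol (0.60 ± 0.11, adjusted p = 0.0027) where the brighter one fell, it was not called on reactivation (0.12 ± 0.11, adjusted p = 0.44), and the 2 probes correlated at r = -0.56 over the 24 arrays. The dimmer probe lay between -0.22 and 0.53 on the flavopiridol arrays and between -1.30 and 0.05 on the others, so that the ranges overlapped in part. The interaction with JQ1 was called in both (-0.68 ± 0.16 in the dimmer, adjusted p = 0.036).

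In Srsf1 the second probe rose on reactivation (0.60 ± 0.11, adjusted p = 0.0055) from 0.79, 0.86 and 1.23 to 1.39, 1.49 and 1.82 in the 3 DMSO pairs, the opposite of the brightest probe, and it was not called with 500 nM JQ1 (-0.03 ± 0.10, adjusted p = 0.83). The third followed the brightest one (r = 0.96), and it was lower with JQ1 (-0.41 ± 0.09, adjusted p = 0.0050). All 3 probes of Srsf1 carry the same transcript accession in the array's annotation, and the stretch of transcript that each one matches was not examined here. In Srsf7 the second probe rose on reactivation (0.67 ± 0.11, adjusted p = 0.0038), by less than the brightest, and was not called with 10 µM flavopiridol (-0.37 ± 0.26, adjusted p = 0.28). Both Srsf2 probes rose on reactivation and with 500 nM JQ1 (0.51 ± 0.18 in the dimmer, adjusted p = 0.044). Of the Srsf3 probes the brightest alone was called on reactivation. The second, which followed it closely (r = 0.97), was at 0.41 ± 0.14 there (adjusted p = 0.062). The dimmest, above background on 18 arrays, was lower with 500 nM JQ1 (-0.42 ± 0.09, adjusted p = 0.0044) and was not called elsewhere among reactivation, 10 µM flavopiridol and 500 nM JQ1. In Srsf10 the second probe was not called in any of these 3 comparisons, and the third, above background on 20 arrays, was called in all of them and moved as the brightest did on reactivation and with flavopiridol.

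**Figure D5:**
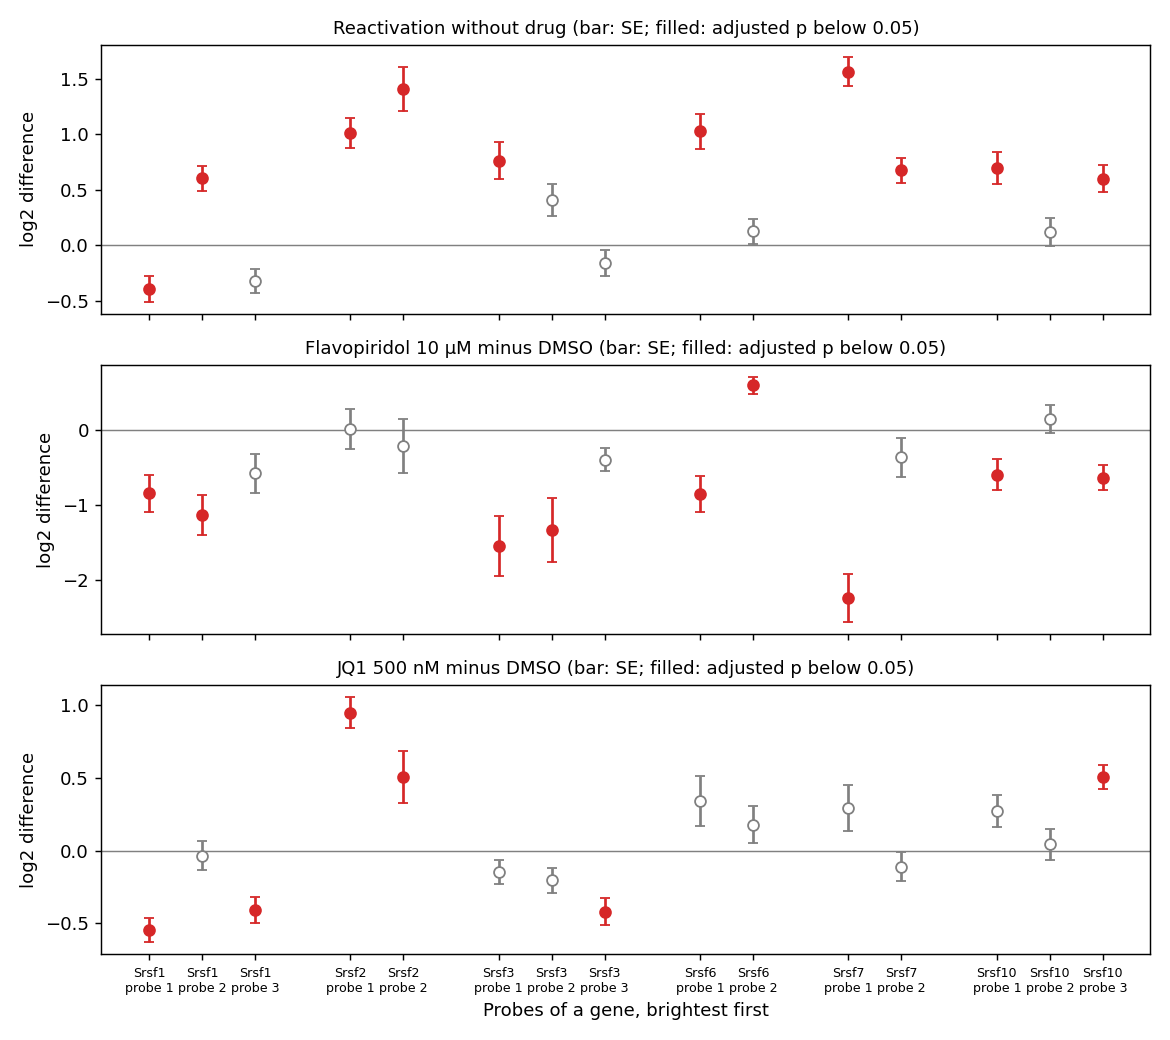
The fitted log2 difference of every probe of the 6 genes with several probes is shown with its SE, for reactivation (top), 10 µM flavopiridol (middle) and 500 nM JQ1 (bottom), and filled points have an adjusted p below 0.05. Probe 2 of Srsf6 lies at 0.60 with flavopiridol where probe 1 lies at -0.86, and probe 2 of Srsf1 lies at 0.60 on reactivation where probe 1 lies at -0.40.

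The genes that act with the SR proteins were counted in the same fits, and their counts stand against 21.9% higher and 29% lower of all genes on reactivation, 15.4% and 33.5% with 10 µM flavopiridol, and 17.7% and 29.9% with 500 nM JQ1. The medians of all genes were -0.05, -0.22 and -0.07 (log2). In the same order, the list medians were 0.26, -0.69 and -0.08 for other SR and SR-related genes, -0.17, -0.26 and 0.33 for SR protein kinases and import, 0.24, -0.23 and 0.04 for hnRNP genes, 0.48, -0.23 and -0.30 for core spliceosome genes, and -0.06, -0.34 and 0.04 for genes of nonsense-mediated decay. Among other SR and SR-related genes, 7 of 20 tested rose on reactivation and 2 fell, among them Luc7l and U2af2 (1.02 ± 0.16 and 0.83 ± 0.14), which encode a U1 snRNP partner and the large U2 auxiliary factor subunit, and Rnps1 (0.78 ± 0.19). With the spike-in shift 12 were higher on reactivation and none lower, where 33.1% of all genes were higher and 16.6% lower. In 10 µM flavopiridol 12 of 21 fell and 1 rose, led by Luc7l2 (-2.19 ± 0.26), Luc7l3 (-1.98 ± 0.22) and U2af1 (-1.76 ± 0.26). In 500 nM JQ1 5 fell, U2surp (-0.51 ± 0.09) and U2af1 (-0.40 ± 0.07) among them, and Srrm2 alone rose (0.49 ± 0.13). The call of Srrm2 was lost with median centring and with the spike-in shift. It was kept with Cy3 alone, the scanner software's ratio and the authors' table. With median centring 13 of the list were lower and with the spike-in shift 7, as were 45.1% and 34.6% of all genes.

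Of the 9 genes of SR protein kinases and import none rose on reactivation, and Srpk2 (-1.95 ± 0.18) and Clk1 (-0.67 ± 0.15) fell, the latter call being lost with the spike-in shift, where 3 of the 9 were higher. With 500 nM JQ1 7 of the 9 were higher, led by Clk1 (0.72 ± 0.12), Prpf4b (0.72 ± 0.11) and Srpk2 (0.39 ± 0.14), and 1 was lower, but 2 were higher with median centring and none with the spike-in shift. With flavopiridol 2 fell at 10 µM, Dyrk1a (-0.93 ± 0.14) and the transportin gene Tnpo3 (-0.88 ± 0.15), and 7 at 1 µM, where 35.4% of all genes were lower. At 10 µM the count was 8 with median centring and 7 with the spike-in shift. In the test of 10 µM against 1 µM 1 of the 9 was called, Clk4, which was higher at 10 µM (1.47 ± 0.26, adjusted p = 0.027, 1.88% of all genes called). Srpk2 was the one list gene that opposed the members in both interactions with reactivation, at 2.06 ± 0.39 for flavopiridol and 0.80 ± 0.14 for JQ1.

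Of the hnRNP genes, whose products often oppose SR proteins at splice sites, 10 of 26 rose and 2 fell on reactivation, led by Hnrnpab (1.38 ± 0.17), Syncrip (1.27 ± 0.18) and Hnrnpll (1.01 ± 0.14), the regulator of CD45 splicing. The count of higher genes was 7 with median centring, 5 with the scanner software's ratio, a share close to the 20.1% of all genes there, and 17 with the spike-in shift. Flavopiridol at 10 µM raised 4 and lowered 8 of the 26, shares close to those of all genes, with Pcbp1 (-2.55 ± 0.39), Hnrnpf (-1.85 ± 0.26) and Hnrnpm (-1.19 ± 0.21) lowest. JQ1 at 500 nM raised 10 and lowered 8, Hnrnpa2b1 (0.99 ± 0.13) and Hnrnpd (-0.98 ± 0.12) and Hnrnpa3 (-0.96 ± 0.09) by most. With median centring 2 were higher and 9 lower, and with the spike-in shift 0 and 7, where the call of Hnrnpa2b1 was lost. Of all genes 5.7% were higher and 45.1% lower with median centring, and 0.682% and 34.6% with the spike-in shift. Core spliceosome genes rose on reactivation in 18 of 34 cases and fell in 2, with Snrpa1 (1.36 ± 0.18), Prpf19 (1.15 ± 0.19) and Snrpa (1.09 ± 0.13) first. With the scanner software's ratio 14 were higher, and with the spike-in shift 26 were higher and none lower. With 10 µM flavopiridol 15 fell and 4 rose, with Sf3b4 (-2.27 ± 0.28), Sf3b3 (-1.96 ± 0.42) and Snrpd1 (-1.84 ± 0.31) lowest, and with 500 nM JQ1 21 fell and 2 rose, Snrpa (-0.66 ± 0.14), Sf3a3 (-0.63 ± 0.09) and Prpf8 (-0.62 ± 0.08) by most. With median centring 29 fell and none rose with JQ1, where 45.1% of all genes were lower.

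Genes of nonsense-mediated decay, the pathway that removes SR transcripts with a poison exon, moved in both directions on reactivation, with 2 higher and 2 lower of 10, among them Smg6 (-0.92 ± 0.13), Smg5 (0.76 ± 0.19) and Upf3b (-0.57 ± 0.13). With the scanner software's ratio none was higher, and with the spike-in shift 4 were higher and 1 lower. With 10 µM flavopiridol 5 of 9 fell, Smg6 (-1.26 ± 0.27), Smg9 (-0.84 ± 0.13) and Smg1 (-0.81 ± 0.17) among them, and 3 with the scanner software's ratio. With 500 nM JQ1 4 of 10 rose, among them Smg6 (0.51 ± 0.09), Smg1 (0.50 ± 0.08) and Upf3b (0.46 ± 0.08), none of which was called with median centring or the spike-in shift. Under these 2 scalings no gene of any of the 5 lists was higher with 10 µM flavopiridol, and 19 and 17 other SR and SR-related genes, 17 and 16 hnRNP genes, 23 and 20 core spliceosome genes and 9 and 8 of the 9 decay genes were lower, as were 67% and 63.6% of all genes. All genes named here for reactivation, 10 µM flavopiridol and 500 nM JQ1 had an adjusted p below 0.05 by limma.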

How the data were processed

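RNA of each sample (Cy3) was hybridised with RNA of naive T cells (Cy5) on Agilent mouse arrays. Per the file headers, spot intensities were extracted with Feature Extraction 10.7.1.1, which also gave a background-subtracted and dye-normalized log10 ratio. The authors also deposited a table of normalized log2 ratios, whose exact centring is not given in the sources used here. Here the median intensities were corrected by normexp (offset 50), normalized by loess within arrays and turned to log2 of sample over naive, in R 4.3.3 with limma 3.58.1. The brightest probe stood for a gene. Genes with Cy3 well above background on at least 3 arrays were fitted with limma over all genes, with context or pair as a block, and called at a Benjamini-Hochberg adjusted p below 0.05. Median signals were used although mean signals had been planned. The fit was tested on simulated data. Alternatives were median centring, a spike-in shift, Cy3 alone, the scanner software's ratio, the authors' table, the mean over probes, other filters, a slide block and omission of each context. All members and probes are named, and of each other list up to 3 called genes with the largest change. Members and lists were chosen with earlier results of these data known. Arrays of 1 condition are not replicated, and the number of arrays limits the precision. Whether arrays came from separate cultures or mice is not given in the sources used here, so p-values measure the spread between these arrays, which may be technical. Promoter sequences and motif counts came from RefSeq (GRCm38.p6). One of the markers of other cell types is not reported here.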

Additional observations from a re-analysis of the deposited data

Results flagged for a closer look

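By the interaction test, the effect of a drug differed between reactivated and unstimulated cells in 6 cases, all lower in reactivated cells, where 15.8% of all genes were called for flavopiridol and 10.1% for JQ1. With 10 µM flavopiridol the differences (log2) were -1.18 for Srsf2 and -1.03 for Srsf6. With 500 nM JQ1 they were -0.53 for Srsf5, -0.99 for Srsf6, -0.87 for Srsf7 and -0.58 for Srsf10. Srsf6 was the one gene called with both drugs, which shared their DMSO arrays. With any 1 context left out, no member was called for flavopiridol and 0 to 2 were for JQ1.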

How the results depend on the processing

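Of 432 values of called members under settings other than the omission of a context, 366 kept direction and call, 65 lost the call and 1 reversed, and of 197 values with a context, pair or condition left out 152 kept and 45 lost the call. For 10 µM flavopiridol the 7 calls became 4 with the scanner software's ratio, 4 with slide as a random block, 4 with 8 arrays and 4 to 6 with a context left out, and Srsf2 turned to -1.25 with median centring. For 1 µM the 5 calls became 9 with median centring and 8 with the spike-in shift, where 62.6% and 52.3% of all genes were lower. For 500 nM JQ1 the 4 calls became 2 with the spike-in shift, and against 50 nM the 5 calls became 3 with that shift, where Srsf5 turned to -0.20, and 2 to 4 with a context left out. For the flavopiridol interaction with reactivation the 2 calls became 0 with median centring, the spike-in shift or the scanner software's ratio, where 7.56%, 1.1% and 5.31% of all genes were called. They became 1 with the authors' table or the mean over probes (16.1% and 15.4% of all genes), and 0 with any context left out. With the slide block they became 5, a count that is not set against all genes here. For the JQ1 interaction the 4 calls became 9 with the spike-in shift (85.7% of all genes were lower), 2 with Cy3 alone, the scanner software's ratio or the authors' table, 0 in the Th1 pairs that share a slide, and 0 to 2 with a context left out. For flavopiridol in Th1 against Th2 cells 0 calls became 2 with the spike-in shift, which moved the median of all genes from -0.02 to 0.82. For Th1 against Th2 cells the 4 calls became 0 with median centring or the spike-in shift and 7 in the flavopiridol conditions alone, where 67% of all genes were called and Srsf1 was at 0.48. At 24 hr of JQ1 the members' median of 0.28 in unstimulated cells became 0.079 with median centring and -0.19 with the spike-in shift, and that of -0.27 in reactivated cells became -0.72 and -0.51. The members' median level against naive cells on the DMSO arrays, 0.20, became -0.32 and 0.71. The cause of these changes was not tested. Context or pair was a block in the fits. By replicate number, no paired analysis was possible because each group holds 1 array.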

Other observations

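Over the 24 arrays, which share their contexts and controls, the log2 ratios of the 36 pairs of SR genes correlated at a median r of 0.59, and 34 pairs were above 0. The lowest was Srsf1 with Srsf2, at -0.41. Pairs among all genes were not correlated, so these values are not shown to be particular to the SR genes. Among 8802 other genes compared over the same arrays, the gene closest to each member was Zfp330 for Srsf7 (r = 0.985), Psma3, a proteasome subunit gene, for Srsf3 (r = 0.980), Cdca4 for Srsf4 (r = 0.980), Cops5, a COP9 signalosome gene, for Srsf9 (r = 0.974), Zfp566 for Srsf6 (r = 0.973), Zfp655 for Srsf5 (r = 0.966), Alcam for Srsf10 (r = 0.940), Phf6 for Srsf1 (r = 0.925) and Crim1 for Srsf2 (r = 0.873). Each is the highest of many values and is given as a description.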
